A study of Mus musculus with 3 samples.

Results

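The cells described here are a small class of marrow endothelium that carried transcripts of Gpihbp1 together with Crispld1 or Enpp6, had at most 1 UMI of Stab2 and at most 1 of 6 arterial genes detected. They numbered 129 of 8423 gated endothelial cells and of 12790 cells kept in the series, with 32 in VC, 67 in FLOX and 30 in WT. Barcodes with fewer than 500 detected genes, or with over 10% of UMIs (unique molecular identifiers, 1 per captured transcript) from mitochondrial genes, were dropped. A kept cell counted as endothelial with at least 5 UMIs of Cdh5, Pecam1, Eng and Kdr together, at least 1 of them Cdh5. It also needed fewer than 50 UMIs of Cxcl12, a stromal gene that arterial cells also carried. A member then needed at least 2 UMIs of Gpihbp1, at least 1 UMI of Crispld1 or Enpp6, at most 1 UMI of Stab2, and detection of at most 1 of the 6 arterial genes Sox17, Sema3g, Fbln2, Gja4, Gja5 and Bmx. These cells are named Gpihbp1/Crispld1 cells for the rule, and they are not called capillary here, since 0 genes outside the rule were above both neighbouring classes at the size used.

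The libraries came from mice of strain C57Bl/6JCrl given tamoxifen by gavage. The VC library is Cdh5CreERT2;Vegfc flox/flox, in which the Cdh5 (VE-cadherin) promoter drives a tamoxifen-activated Cre recombinase in endothelium, the FLOX library is Vegfc flox/flox with no Cre named, and the WT library is wild type. Tibial marrow was digested after intravenous labelling of VE-cadherin, stained for CD45, Ter119 and LepR, and sequenced with 10x 3′ chemistry. Each genotype is 1 library, so differences between genotypes have no replicate check and cannot be told apart from differences between preparations. The labels do not state animal ages, the number of mice per library or the sort gates.

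Endothelium of the marrow is usually divided into arterial vessels, which supply blood and carry Sox17, Gja5 and ephrin B2, and sinusoids, wide and permeable vessels marked by the receptor Flt4 and by Stab2 and Stab1, which clear waste molecules from blood. Thin capillaries and transition-zone vessels join them. GPIHBP1 is the anchor by which capillary endothelium in many tissues binds lipoprotein lipase and carries it to the vessel lumen, where the lipase releases fatty acids from circulating lipoproteins. ENPP6 is a choline-specific glycerophosphodiesterase, BTNL9 a butyrophilin-like membrane protein of the immunoglobulin superfamily, and CYYR1 a small membrane protein rich in cysteine and tyrosine.

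The 5 marker genes lie on 5 chromosomes of GRCm38. Gpihbp1 (ENSMUSG00000022579) is at chr15:75596628-75599481 on the forward strand, Crispld1 (ENSMUSG00000025776) at chr1:17727045-17766344 on the forward strand, and Enpp6 (ENSMUSG00000038173) at chr8:46986887-47096762 on the forward strand. Btnl9 (ENSMUSG00000040283) is at chr11:49165585-49187159 and Cyyr1 (ENSMUSG00000041134) at chr16:85421533-85553397, both on the reverse strand. Gpihbp1 belongs to the Ly6 family of GPI-anchored proteins, and Ly6a (chr15:74994877-74998031) and Ly6c1 (chr15:75044018-75048830), which were also high in these cells, lie on the same chromosome. That neighbourhood was noticed after the values had been seen.

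RefSeq start-site windows of build GRCm38.p6, 250 bases before to 50 after the start, matched 3 of the 5 markers, Enpp6, Btnl9 and Cyyr1, and are shown for these. Enpp6 is a gene of the rule, and neither Btnl9 nor Cyyr1 separated the cells from arterial endothelium. The windows are written 5′ to 3′ on the gene's strand, with capitals at the core of the ETS motif, AGGAAG on either strand, a family of factors active in all endothelium. The Enpp6 window is chr8:46986637-46986936, that of Btnl9 chr11:49187040-49187339, and that of Cyyr1 chr16:85550324-85550623, which lies inside the annotated gene span.
Enpp6: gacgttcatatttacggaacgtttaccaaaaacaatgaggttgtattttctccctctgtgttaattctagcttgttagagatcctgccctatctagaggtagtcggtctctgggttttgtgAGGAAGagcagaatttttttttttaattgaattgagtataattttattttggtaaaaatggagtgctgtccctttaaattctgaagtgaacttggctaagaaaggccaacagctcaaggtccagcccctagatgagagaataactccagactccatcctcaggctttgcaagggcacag
Btnl9: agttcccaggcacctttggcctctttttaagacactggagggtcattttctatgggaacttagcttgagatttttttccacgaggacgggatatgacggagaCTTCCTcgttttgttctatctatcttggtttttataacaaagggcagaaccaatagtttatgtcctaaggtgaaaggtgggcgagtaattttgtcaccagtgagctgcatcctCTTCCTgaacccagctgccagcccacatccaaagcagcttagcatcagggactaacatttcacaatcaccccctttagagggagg
Cyyr1: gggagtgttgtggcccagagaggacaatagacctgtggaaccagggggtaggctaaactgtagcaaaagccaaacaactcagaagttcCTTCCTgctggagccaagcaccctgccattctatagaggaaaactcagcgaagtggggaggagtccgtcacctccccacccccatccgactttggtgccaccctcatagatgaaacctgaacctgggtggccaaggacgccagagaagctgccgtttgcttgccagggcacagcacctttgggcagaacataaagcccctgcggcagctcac
The ETS core occurred once in the Enpp6 and Cyyr1 windows and at 2 places in that of Btnl9, and 35.4% of all 32851 windows of this length hold it. A match of letters is a description and not a site shown to be bound. The GC content of the windows was 40.3% for Enpp6, 46.0% for Btnl9 and 56.7% for Cyyr1, against a median of 52.7% over all windows.

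The files hold 3377 barcodes for VC, 6529 for FLOX and 5718 for WT, of which 1793, 3510 and 3120 were gated endothelial cells in VC, FLOX and WT. Levels are CPM, the UMIs of a gene summed over the cells of a class and scaled as counts per 1000000 UMIs of that class. Intervals are exact 95% Poisson intervals for sums and exact Clopper-Pearson intervals for shares, and both cover counting error only. The Gpihbp1/Crispld1 cells held 213666 UMIs in VC, 377235 in FLOX and 209713 in WT, so 1 UMI was worth 4.68 CPM in VC, 2.65 in FLOX and 4.77 in WT. Their median depth was 6534 UMIs in VC, 5088 in FLOX and 7313.5 in WT, against 10350, 7569 and 10851.5 UMIs in sinusoidal cells of VC, FLOX and WT. Between 5 and 10 barcodes were shared by each pair of libraries, and none of them was a Gpihbp1/Crispld1 cell in any pair. In FLOX, 1 of these cells held 1279 of the 1358 UMIs of the neutrophil gene S100a8, and in WT, 1 held 666 of the 688 UMIs of the haemoglobin gene Hbb-bs. Those 2 cells were kept, and the counts without such cells are given beside each comparison. Vegfc, the floxed gene, had 0 UMIs in VC, 1 in FLOX and 0 in WT Gpihbp1/Crispld1 cells, where 3 UMIs, the limit a count of 0 allows, stand at 14.0 CPM in VC and 14.3 CPM in WT. Its deletion could therefore not be read in these cells.

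Sinusoidal cells were gated endothelial cells with at least 2 UMIs of Stab2 and at most 1 arterial gene, 1501 in VC, 2991 in FLOX and 2756 in WT. Arterial cells had at most 1 UMI of Stab2 and at least 3 of the 6 arterial genes, 65 in VC, 136 in FLOX and 28 in WT. A further 817 gated cells met none of the 3 definitions. The Gpihbp1/Crispld1 cells were 1.78% of gated endothelial cells in VC (1.22 to 2.51), 1.91% in FLOX (1.48 to 2.42) and 0.962% in WT (0.650 to 1.37). The VC and WT intervals overlapped, and the FLOX interval lay above that of WT. For each arterial cell there were 0.492 of them in VC, 0.493 in FLOX and 1.07 in WT. The rule sets limits on small counts of Stab2, the arterial genes, Gpihbp1, Crispld1 and Enpp6, and so depends on depth. With every cell thinned to 5000 UMIs, 4.39% of VC (3.44 to 5.50), 3.65% of FLOX (2.98 to 4.43) and 3.17% of WT (2.55 to 3.88) cells met it. This left out 149, 749 and 286 shallower cells of VC, FLOX and WT. The FLOX and WT intervals then overlapped. The number of cells that met the rule rose to 71 in VC, 99 in FLOX and 89 in WT. Thinning lowers the counts of all genes of the rule, so it can add cells only through its upper limits. These are the limits on Stab2, the arterial genes and Cxcl12, and the part of each in the higher shares was not tested. The shares therefore describe the rule as much as the cells.

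Plvap, an endothelial gene outside the gate, was found in every one of the 129 cells. Cdh5, the endothelial cadherin, was required by the gate, and its level of 1404 CPM in VC, 1278 in FLOX and 1349 in WT Gpihbp1/Crispld1 cells is a description. Gpihbp1, Crispld1 and Enpp6 chose the cells, and their levels are given as a description. Gpihbp1 was at 1591 CPM in VC (1427 to 1769.7), 1575 CPM in FLOX (1451 to 1706) and 1516 in WT (1354 to 1693) Gpihbp1/Crispld1 cells, against 328 CPM in VC, 405 in FLOX and 445 in WT sinusoidal cells. Single cells had between 2 and 35 UMIs of it in VC, with a median of 6.5, between 2 and 31 in FLOX, with a median of 8, and between 2 and 33 in WT, with a median of 6.5. Outside the rule for Gpihbp1, its level was 999 CPM in VC, 945 in FLOX and 1317 in WT arterial cells, above the sinusoidal level in each library. Crispld1 was at 304 CPM in VC, 387 in FLOX and 324 in WT Gpihbp1/Crispld1 cells, against 132 to 143 CPM in sinusoidal cells and 164 to 230.2 CPM in arterial cells. Enpp6 was at 917 CPM in VC, 944 in FLOX and 896 in WT Gpihbp1/Crispld1 cells, against 423 to 583 CPM in sinusoidal cells and 338 to 703 CPM in arterial cells. Of the 129 cells, 91 had both Crispld1 and Enpp6, 32 had Enpp6 without Crispld1 and 6 had Crispld1 without Enpp6.

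Btnl9 and Cyyr1 are the 2 markers that the rule did not use. Btnl9 was at 1002 CPM in VC, 1029 in FLOX and 1135 in WT Gpihbp1/Crispld1 cells, against 354 CPM in VC, 569 in FLOX and 561 in WT sinusoidal cells. Its level was 779 CPM in VC, 753 in FLOX and 1716 in WT arterial cells, so the Gpihbp1/Crispld1 cells were above them in VC and FLOX and below them in WT. Cyyr1 was at 908 CPM in VC, 899 in FLOX and 1063 in WT Gpihbp1/Crispld1 cells, against 389 CPM in VC, 369 in FLOX and 349.9 in WT sinusoidal cells. It was at 845 CPM in VC, 805 in FLOX and 1519 in WT arterial cells, and the order was again turned round in WT. Both genes were higher than in sinusoidal cells in each library, Cyyr1 at least 2-fold in each, and neither separated the cells from arterial endothelium.

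**Figure D1:**
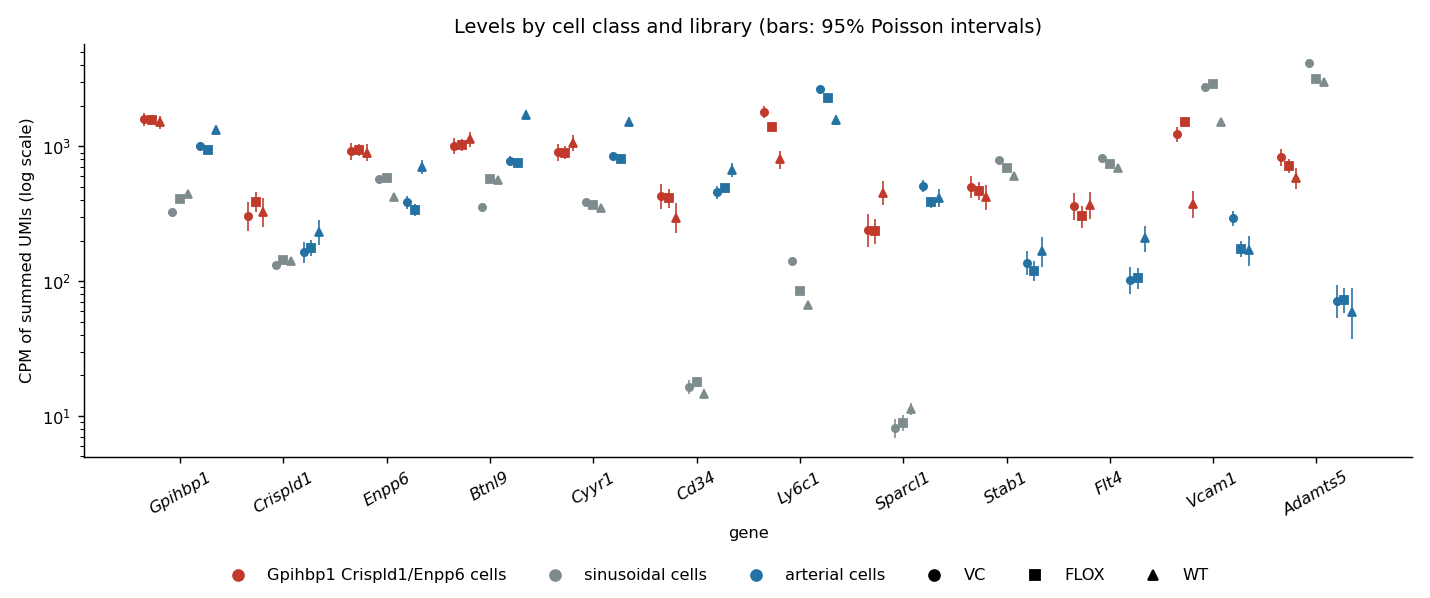
Levels of 12 genes (x axis) as CPM of summed UMIs (y axis, log scale) in Gpihbp1/Crispld1 cells (red), sinusoidal cells (grey) and arterial cells (blue), 1 point per library (circle VC, square FLOX, triangle WT) with 95% Poisson intervals. Cd34, Ly6c1 and Sparcl1 lie far above the sinusoidal level, while Stab1, Flt4 and Adamts5 lie between both neighbours in each library.

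Against sinusoidal cells, the Gpihbp1/Crispld1 cells had more transcripts of Sparcl1, Ramp3, Cd34, Cav1 and Slc6a6 and fewer of Cxadr, Sema3a, Adamts5, Abcc9 and Ackr1. Of 3418 genes that averaged 50 CPM or more over both classes and held 50 or more UMIs, 74 (2.17%) were at least 2-fold higher in each of the 3 libraries and 61 (1.78%) at least 2-fold lower. Genes of the rule and mitochondrial genes were left out. The cells were chosen on expression and each genotype is 1 library, so these counts carry no test.

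Sparcl1, a secreted matricellular protein, stood furthest apart, at 239 CPM in VC (178 to 314), 236 CPM in FLOX (189 to 290.3) and 453 in WT (367 to 554) Gpihbp1/Crispld1 cells, against 8.05 CPM in VC, 8.86 in FLOX and 11.3 in WT sinusoidal cells. It was found in 13 of 32 VC, 21 of 67 FLOX and 6 of 30 WT cells, and 1 WT cell held 43 of the 95 WT UMIs. Without that cell the WT level was 262 CPM. Ramp3, a partner of the adrenomedullin receptor, was at 159 CPM in VC, 162 in FLOX and 138 in WT Gpihbp1/Crispld1 cells, against 4.24 to 6.38 CPM in sinusoidal cells. Cd34, a sialomucin of capillary and arterial surfaces, was at 426 CPM in VC, 414 in FLOX and 296 in WT Gpihbp1/Crispld1 cells, against 16.4 CPM in VC, 17.8 in FLOX and 14.5 in WT sinusoidal cells. A UMI of Cd34 was held by 22 of 32 VC, 45 of 67 FLOX and 14 of 30 WT cells. At these levels a cell with 0 UMIs of Sparcl1 or Cd34 may still express the gene, so the counts of cells do not show how widespread either was. Cav1, which builds the coat of caveolae, was at 145 CPM in VC, 140.5 in FLOX and 186 in WT Gpihbp1/Crispld1 cells, against 8.05 CPM in VC, 7.58 in FLOX and 10.9 in WT sinusoidal cells. Slc6a6, the taurine transporter, was at 688 CPM in VC, 769 in FLOX and 701 in WT Gpihbp1/Crispld1 cells, against 50.8 to 59.6 CPM in sinusoidal cells. For each of these 5 genes the lowest library of Gpihbp1/Crispld1 cells stood above the highest library of sinusoidal cells.

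Ednrb, the endothelin B receptor, was at 131 CPM in VC, 111 in FLOX and 124 in WT Gpihbp1/Crispld1 cells, against 4.68 to 6.61 CPM in sinusoidal cells, although only 5 of 32 VC, 13 of 67 FLOX and 9 of 30 WT cells held a UMI. Jam2, a junctional adhesion molecule, was at 136 CPM in VC, 175 in FLOX and 191 in WT Gpihbp1/Crispld1 cells, against 9.83 to 11.9 CPM in sinusoidal cells. Efnb2, the arterial ephrin, was at 215 CPM in VC, 315 in FLOX and 224 in WT Gpihbp1/Crispld1 cells, against 20.5 to 24.4 CPM in sinusoidal cells. The next genes also stood above every sinusoidal value. Kitl, the stem cell factor that blood stem cells need, was at 140.4 CPM in VC, 196 in FLOX and 57.2 in WT Gpihbp1/Crispld1 cells, against 5.71 to 8.52 CPM in sinusoidal cells, with 12 UMIs behind the WT value. Ly6c1, a GPI-anchored Ly6 protein, was at 1811 CPM in VC, 1394 in FLOX and 801 in WT Gpihbp1/Crispld1 cells, against 140.1 CPM in VC, 85.1 in FLOX and 66.3 in WT sinusoidal cells. The guanine nucleotide exchange factor Mcf2l, phospholipase C beta 1 (Plcb1), the matrix protein Vwa1, the adhesion receptor Adgre5 and the antiviral gene Rsad2 complete the 15 genes with the highest folds. The lowest fold over the 3 libraries was 21.8 for Mcf2l, 12.6 for Plcb1, 9.58 for Vwa1, 5.94 for Adgre5 and 5.78 for Rsad2.

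The genes lower than in sinusoidal cells were led by Cxadr, a junctional receptor, at 4.68 CPM in VC, 26.5 in FLOX and 42.9 in WT Gpihbp1/Crispld1 cells, against 359 CPM in VC, 367 in FLOX and 528 in WT sinusoidal cells. A sum of 1 UMI stood behind the VC value. Sema3a, a secreted guidance protein, was at 42.1 CPM in VC, 71.6 in FLOX and 66.8 in WT Gpihbp1/Crispld1 cells, against 691 CPM in VC, 566 in FLOX and 487 in WT sinusoidal cells. Adamts5, a matrix protease abundant in sinusoids, was at 828 CPM in VC (711 to 959.8), 718 CPM in FLOX (635 to 809) and 582 in WT (483 to 695) Gpihbp1/Crispld1 cells, against 4147 CPM in VC, 3179 in FLOX and 2989 in WT sinusoidal cells. Arterial cells, where the gene should be scarce, had 58.8 to 72.6 CPM, so the level of the Gpihbp1/Crispld1 cells stood above that background. Adamts5 thus lay between both neighbours. Abcc9, a potassium channel subunit, was at 398 CPM in VC, 371 in FLOX and 563 in WT Gpihbp1/Crispld1 cells, against 1384 to 1834 CPM in sinusoidal cells. Ackr1, the chemokine-binding receptor of venules, was at 42.1 CPM in VC, 87.5 in FLOX and 47.7 in WT Gpihbp1/Crispld1 cells, against 283 to 405 CPM in sinusoidal cells. Cfd, Dclk1, Ston2, Tgfbi, Adgrg6, Loxl2, Acer3, Itih5, Rarres2 and Cdkl1 were also among the 15 lowest. Each of these was at least 3.43-fold lower in every library, the value of Cdkl1. Several rested on few UMIs, with 3 in VC, 13 in FLOX and 2 in WT for Cdkl1 and 3, 7 and 2 in VC, FLOX and WT for Tgfbi. The counting error of such folds is wide. For Cfd, with 0 UMIs in VC, a floor of 3 UMIs was used, and its VC ratio is a bound.

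**Figure D2:**
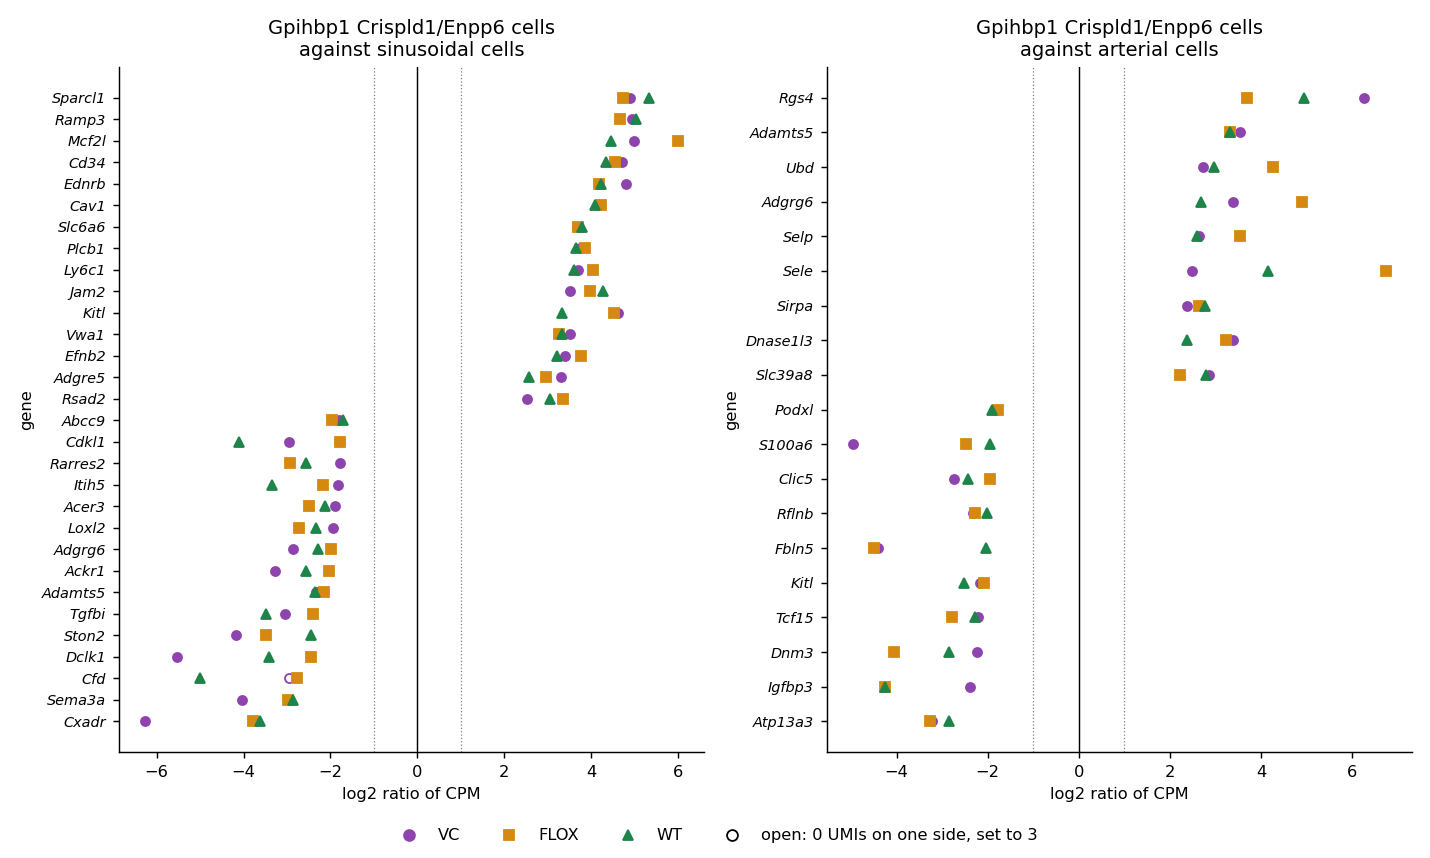
Log2 ratios of CPM (x axis) of Gpihbp1/Crispld1 cells over sinusoidal cells (left) and over arterial cells (right) for named genes (y axis), 1 symbol per library. Dotted lines mark a 2-fold difference, open symbols stand where 1 side had 0 UMIs and was set to 3, and each gene lies beyond the same dotted line in the VC, FLOX and WT libraries.

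The gene groups showed where the difference lay. Of the basement membrane list, 4 of 14 measured genes were higher and 0 lower, with median log2 ratios of 0.73 in VC, 0.62 in FLOX and 0.52 in WT, beside 0.05, 0.05 and -0.06 over all genes tested in VC, FLOX and WT. Col4a1, the main collagen of vascular basement membrane, was at 1236 CPM in VC, 1424 in FLOX and 1354 in WT Gpihbp1/Crispld1 cells, against 494 CPM in VC, 427 in FLOX and 424 in WT sinusoidal cells. Col4a2 was at 809.7 CPM in VC, 978 in FLOX and 849 in WT Gpihbp1/Crispld1 cells, against 262 to 279 CPM in sinusoidal cells, and Lama4, a laminin chain of endothelium, at 112 CPM in VC, 98.1 in FLOX and 71.5 in WT Gpihbp1/Crispld1 cells, against 10.1 to 19.01 CPM in sinusoidal cells. Of the BMP and TGF-beta list, 4 of 11 were higher and 0 lower, namely Id1, Id3, Smad7 and Ltbp4, with medians of 0.50 in VC, 0.42 in FLOX and 0.57 in WT. Id1, a target of BMP signalling, was at 384 CPM in VC, 302 in FLOX and 367 in WT Gpihbp1/Crispld1 cells, against 113 CPM in VC, 94.97 in FLOX and 123 in WT sinusoidal cells. Smad7, an inhibitor of the pathway, was at 206 CPM in VC, 129.9 in FLOX and 124 in WT Gpihbp1/Crispld1 cells, against 31.8 to 35.5 CPM in sinusoidal cells. Ltbp4, which holds latent TGF-beta in the matrix, was at 145 CPM in VC, 140.5 in FLOX and 143 in WT Gpihbp1/Crispld1 cells, against 14.9 to 26.9 CPM in sinusoidal cells.

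Of 11 measured arterial genes outside the rule, 5 were higher (Efnb2, Notch4, Ltbp4, Ly6a and Ly6c1) and 0 lower, with medians of 0.45 in VC, 0.93 in FLOX and 0.34 in WT. Notch4, a Notch receptor of endothelium, was at 88.9 CPM in VC, 111 in FLOX and 85.8 in WT Gpihbp1/Crispld1 cells, against 36.9 to 41.3 CPM in sinusoidal cells. Of 11 sinusoidal genes outside the rule, 0 were higher and 2 lower (Adamts5 and Mrc1), with medians of -1.11 in VC, -0.94 in FLOX and -0.97 in WT. Mrc1, the mannose receptor of scavenging endothelium, was at 505 CPM in VC, 604 in FLOX and 453 in WT Gpihbp1/Crispld1 cells, against 1621 CPM in VC, 1642 in FLOX and 1773 in WT sinusoidal cells. Flt4, the receptor of VEGF-C, was at 360.4 CPM in VC, 302 in FLOX and 367 in WT Gpihbp1/Crispld1 cells, against 825 CPM in VC, 737 in FLOX and 695 in WT sinusoidal cells, and did not reach 2-fold in each library. Stab1, the scavenger receptor related to Stab2, was at 501 CPM in VC, 467 in FLOX and 419.6 in WT Gpihbp1/Crispld1 cells, against 786 CPM in VC, 687 in FLOX and 607 in WT sinusoidal cells. Its ratios were below 2-fold in every library, so the cells kept sinusoidal transcripts that the rule did not cap.

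The genes of lipid handling, the function Gpihbp1 serves, leaned lower than in sinusoidal cells in each library. Of the 10 measured genes outside the rule, 1 was higher (Cav1) and 2 lower (Pparg and Angptl4), with medians of -0.71 in VC, -0.83 in FLOX and -0.48 in WT. Pparg, the nuclear receptor that drives fat uptake genes, was at 93.6 CPM in VC, 119 in FLOX and 114 in WT Gpihbp1/Crispld1 cells, against 269.6 CPM in VC, 249 in FLOX and 391 in WT sinusoidal cells. Angptl4, an inhibitor of lipoprotein lipase, was at 74.9 CPM in VC, 68.9 in FLOX and 52.5 in WT Gpihbp1/Crispld1 cells, against 297 CPM in VC, 220.3 in FLOX and 236 in WT sinusoidal cells. Lpl, the lipase that GPIHBP1 carries, was at 65.5 CPM in VC, 45.1 in FLOX and 28.6 in WT Gpihbp1/Crispld1 cells, against 114 CPM in VC, 154 in FLOX and 178 in WT sinusoidal cells. Pparg, Angptl4 and Lpl were lower than in sinusoidal cells in each library, Lpl without reaching 2-fold in all 3. Fabp4, a fatty acid carrier, was at 5775 CPM in VC, 7521 in FLOX and 8373 in WT Gpihbp1/Crispld1 cells, against 8916 CPM in VC, 11429 in FLOX and 12289.9 in WT sinusoidal cells. Cd36, a fatty acid transporter, was at 360.4 CPM in VC, 254 in FLOX and 619.9 in WT Gpihbp1/Crispld1 cells, against 341 CPM in VC, 386 in FLOX and 775 in WT sinusoidal cells. Of 7 measured genes of caveolae and fenestrae only Cav1 was past the size. Plvap, which forms the diaphragms of fenestrae, was at 1409 CPM in VC, 1628 in FLOX and 1130.1 in WT Gpihbp1/Crispld1 cells, against 1348 CPM in VC, 1205 in FLOX and 1239 in WT sinusoidal cells.

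Among 22 measured transcription factors, Lmo2 and Foxp1 were higher and Nr2f2 and Pparg lower. Nr2f2, the venous identity factor, was at 374 CPM in VC, 286 in FLOX and 196 in WT Gpihbp1/Crispld1 cells, against 960.1 CPM in VC, 897 in FLOX and 686 in WT sinusoidal cells, and arterial cells had 57.1 to 113 CPM. Of 15 pan-endothelial genes outside the rule, Flt1 and Cd34 were higher and 0 lower. Flt1, the VEGF-A decoy receptor, was at 1694 CPM in VC, 1678 in FLOX and 1497 in WT Gpihbp1/Crispld1 cells, against 685 CPM in VC, 673 in FLOX and 595 in WT sinusoidal cells. Cdkn1c, an inhibitor of the cell cycle, was at 744 CPM in VC, 867 in FLOX and 558 in WT Gpihbp1/Crispld1 cells, against 152 CPM in VC, 206 in FLOX and 206 in WT sinusoidal cells, and was the 1 gene past the size of 5 measured cell cycle genes. After thinning to 2000 UMIs, a UMI of Top2a or Mki67, which mark dividing cells, was held by 0 of 30 VC, 3 of 65 FLOX and 0 of 27 WT Gpihbp1/Crispld1 cells. By the limit of 3 counts, 0 cells allow a share of cells with a UMI of up to 10.0% in VC and 11.1% in WT, and the exact interval in FLOX was 0.962% to 12.9%, so a difference in these shares was not detectable at this depth.

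The Gpihbp1/Crispld1 cells were shallower than sinusoidal cells, and within cells of 3000 to 9000 UMIs of both classes 76 genes were higher and 54 lower. Of these, 58 and 46 were shared with the counts over all cells. Markers of blood cells differed as well. The 9 neutrophil genes summed to 262 CPM in VC, 10895 in FLOX (681 without 1 cell) and 482 in WT Gpihbp1/Crispld1 cells, against 3281, 4690 and 818 CPM in sinusoidal cells of VC, FLOX and WT. Leaving out cells with 100 or more UMIs of S100a8 or Hbb-bs gave 75 higher and 61 lower genes. Leaving out every cell with UMIs of another cell type kept 11 VC, 23 FLOX and 3 WT cells and gave 53 higher and 16 lower. The mural list, apart from Abcc9 and Kcnj8, which sinusoidal cells also express, was at or near 0, and Acta2 and Myh11, genes of smooth muscle, had 0 UMIs in each library. The 14 stromal genes summed to 435 CPM in VC, 843 in FLOX and 209.8 in WT Gpihbp1/Crispld1 cells, led by Kitl and Cxcl12, with Col1a1 and Dcn at 0 in each library. They summed to 2303 CPM in VC, 3032 in FLOX and 1348 in WT arterial cells, also led by Cxcl12 and Kitl, and to 333 to 410 CPM in sinusoidal cells. The list is therefore not specific to stroma here. The part of the blood-cell, mural and stromal-list transcripts in the differences was not tested.

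Against arterial cells, the Gpihbp1/Crispld1 cells had more transcripts of adhesion and sinusoidal genes and fewer of genes of the arterial wall. Of 3514 genes, 47 (1.34%) were at least 2-fold higher in each library and 37 (1.05%) at least 2-fold lower. The WT arterial cells were 28, and with the fold asked of VC and FLOX alone 116 genes were higher and 129 lower. Arterial cells had a median depth of 9473 UMIs in VC, 7031.5 in FLOX and 13126.5 in WT, against 6534, 5088 and 7313.5 UMIs in Gpihbp1/Crispld1 cells of VC, FLOX and WT. The neutrophil list summed to 26397 CPM in VC and 26800 in FLOX arterial cells, against 266 in WT arterial cells, and without cells of either class holding 100 or more UMIs of S100a8 or Hbb-bs the counts were 45 higher and 38 lower. Without cells holding UMIs of any other cell type, 22 were higher and 6 lower of 2636 genes measured. Only 15 of the higher and 1 of the lower genes were shared with the counts over all cells. Within cells of 3000 to 9000 UMIs, 48 were higher and 32 lower, with 27 and 17 shared with the counts over all cells.

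Rgs4, a regulator of G-protein signals, stood highest over arterial cells, at 309 CPM in VC, 199 in FLOX and 157 in WT Gpihbp1/Crispld1 cells, against 4.04 CPM in VC, 15.5 in FLOX and 5.11 in WT arterial cells. Ubd, a ubiquitin-like protein, was at 1198 CPM in VC, 440.04 in FLOX and 401 in WT Gpihbp1/Crispld1 cells, against 182 CPM in VC, 22.8 in FLOX and 51.1 in WT arterial cells. P-selectin (Selp) was at 117 CPM in VC, 114 in FLOX and 339 in WT Gpihbp1/Crispld1 cells, against 18.8 CPM in VC, 9.79 in FLOX and 56.3 in WT arterial cells, and E-selectin (Sele) at 187 CPM in VC, 435 in FLOX and 501 in WT Gpihbp1/Crispld1 cells, against 33.6 CPM in VC, 4.08 in FLOX and 28.1 in WT arterial cells. In WT, 1 cell held 41 of the 71 UMIs of Selp. Both selectins let leukocytes roll on the vessel wall. Dnase1l3, a secreted nuclease of sinusoids, was at 646 CPM in VC, 479.8 in FLOX and 529 in WT Gpihbp1/Crispld1 cells, against 61.9 CPM in VC, 51.4 in FLOX and 102 in WT arterial cells, while sinusoidal cells had 692 to 797 CPM. Adamts5, Adgrg6, Sirpa and Slc39a8 were also among the 10 highest. The lowest fold over the libraries was 9.89 for Adamts5, 6.39 for Adgrg6, 5.22 for Sirpa and 4.66 for Slc39a8.

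Of 11 sinusoidal genes outside the rule, 8 were higher than in arterial cells and 0 lower, with median log2 ratios of 2.07 in VC, 2.33 in FLOX and 1.14 in WT, beside 0.03, -0.04 and -0.10 over all genes tested in VC, FLOX and WT. Stab1 was at 419.6 to 501 CPM in Gpihbp1/Crispld1 cells, against 119 to 166 CPM in arterial cells. Vcam1, an adhesion receptor for lymphoid and progenitor cells, was at 1226 CPM in VC, 1527 in FLOX and 372 in WT Gpihbp1/Crispld1 cells, against 292 CPM in VC, 174 in FLOX and 169 in WT arterial cells. Of 6 venular genes 3 were higher (Selp, Sele and Icam1) and 0 lower. F8, the coagulation factor made by endothelium, was at 721 CPM in VC, 562 in FLOX and 811 in WT Gpihbp1/Crispld1 cells, against 198 CPM in VC, 111 in FLOX and 233 in WT arterial cells. With Tfpi, an inhibitor of clotting, it made 2 of 7 measured coagulation genes that were higher, and 0 were lower.

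Among the genes lower than in arterial cells, Atp13a3, a polyamine transporter, was at 51.5 CPM in VC, 50.4 in FLOX and 19.1 in WT Gpihbp1/Crispld1 cells, against 478 CPM in VC, 488 in FLOX and 138 in WT arterial cells. Fbln5, an elastic-fibre protein of artery walls, was at 28.1 CPM in VC, 31.8 in FLOX and 28.6 in WT Gpihbp1/Crispld1 cells, against 596 CPM in VC, 720.05 in FLOX and 118 in WT arterial cells. Podxl, a sialomucin of the vessel lumen, was at 257 CPM in VC, 262 in FLOX and 172 in WT Gpihbp1/Crispld1 cells, against 888 CPM in VC, 902 in FLOX and 644 in WT arterial cells, and so lay between arterial cells and the sinusoidal 33.8 to 37.9 CPM. Kitl was at 57.2 to 196 CPM in Gpihbp1/Crispld1 cells, against 627 CPM in VC, 832 in FLOX and 327 in WT arterial cells. Tcf15, which with Meox2 drives fatty acid transport in mouse heart capillaries, was at 42.1 CPM in VC, 23.9 in FLOX and 4.77 in WT Gpihbp1/Crispld1 cells, against 196 CPM in VC, 164 in FLOX and 23.02 in WT arterial cells, with 1 UMI behind the WT value. Igfbp3, Dnm3, Rflnb, Clic5 and S100a6 were also among the 10 lowest. Of 15 arterial genes outside the rule, 0 were higher and 3 lower (Jag2, Fbln5 and Ltbp4), with medians of -1.47 in VC, -1.73 in FLOX and -0.53 in WT.

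Taking both comparisons, 0 of 3213 genes measured in both were at least 2-fold above sinusoidal and above arterial cells in each library, so no gene outside the rule marked the Gpihbp1/Crispld1 cells at that size. Npnt, a matrix protein that binds integrins, was the 1 gene below both, at 4.68 CPM in VC, 58.3 in FLOX and 19.1 in WT Gpihbp1/Crispld1 cells, against 143 to 158 CPM in sinusoidal and 86.9 to 161 CPM in arterial cells. In between stood 9 genes above sinusoidal and below arterial cells (Ebf1, Kitl, Ltbp4, Mgll, Podxl, Rflnb, Slc6a6, Slc9a3r2 and Syne1). Another 12 were below sinusoidal and above arterial cells (among them Abcc9, Adamts5, Adgrg6, Clca3a1, Cxcl9, Ipo11, Mrc1, Rgs4, Sirpa, Tspan7 and Ugcg). Mgll, which breaks down monoacylglycerols, was at 229 CPM in VC, 286 in FLOX and 181 in WT Gpihbp1/Crispld1 cells, against 41.8 to 72.9 CPM in sinusoidal and 713 to 976 CPM in arterial cells.

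The position between the neighbours was measured over genes outside the rule that differed at least 2-fold between arterial and sinusoidal cells in each library. On a log2 scale with the sinusoidal level at 0 and the arterial level at 1, the Gpihbp1/Crispld1 cells lay between both for 185 of 212 arterial-high genes in VC, 187 in FLOX and 184 in WT. The median position was 0.668 in VC, 0.644 in FLOX and 0.605 in WT. For the 175 genes that were lower in arterial than in sinusoidal cells they lay between both for 165 in VC, 168 in FLOX and 162 in WT, with medians of 0.428 in VC, 0.393 in FLOX and 0.485 in WT. By these medians the sums stood nearer to arterial cells for arterial-high genes and nearer to sinusoidal cells for arterial-low genes. Sums over a mix of cells are pulled towards the higher neighbour on this scale, so they do not show where single cells lie. The genes were picked on the same arterial and sinusoidal values that set the ends of the scale. The rule also caps both Stab2 and the arterial genes. A place between the neighbours is therefore in part set by these choices and is given with no test.

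**Figure D3:**
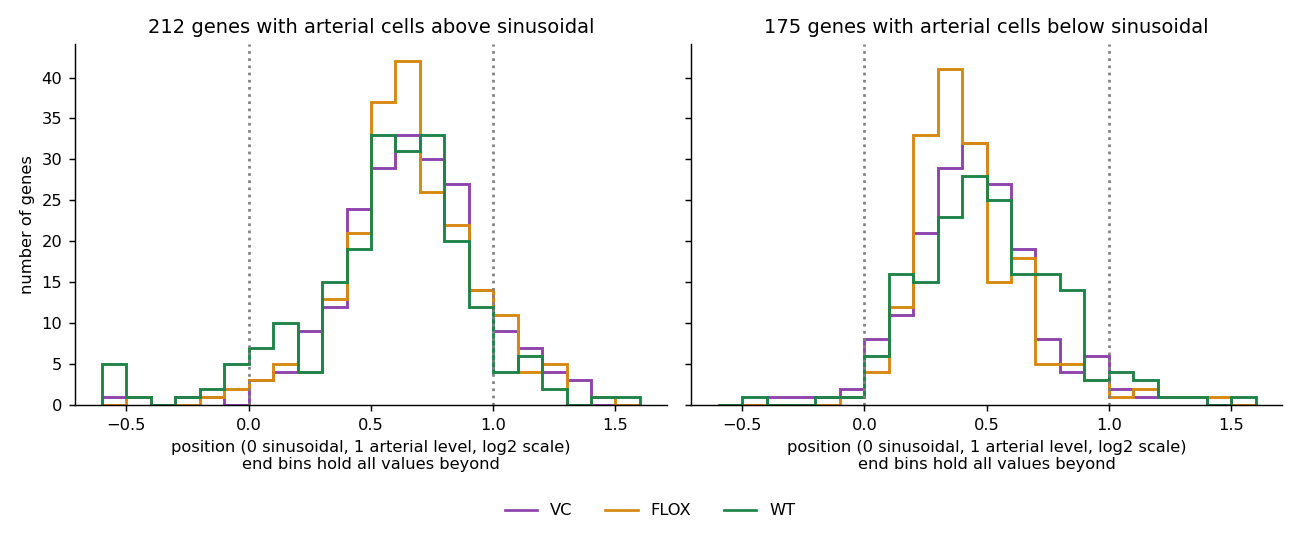
Number of genes (y axis) by the position of Gpihbp1/Crispld1 cells (x axis, log2 scale with 0 at the sinusoidal and 1 at the arterial level), 1 line per library, for 212 arterial-high genes (left) and 175 arterial-low genes (right). The end bins hold the values beyond them. The medians of the left panel lie between 0.605 and 0.668 and those of the right panel between 0.393 and 0.485.

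The cells differed among themselves. Per cell, UMIs of 14 sinusoidal and 23 arterial genes outside the rule were summed and scaled to 10000 UMIs. Over all libraries the Gpihbp1/Crispld1 cells had a median of 77.3 sinusoidal and 42.5 arterial UMIs per 10000. These medians were 202 and 18.2 in sinusoidal cells and 13.1 and 99.3 in arterial cells. The libraries differed on the arterial list, with medians of 51.0 in VC, 48.6 in FLOX and 27.5 in WT Gpihbp1/Crispld1 cells. Arterial cells had medians of 114 in VC, 104 in FLOX and 47.2 in WT, so WT arterial cells were below the VC and FLOX Gpihbp1/Crispld1 cells. Single cells ran from 4.201 to 344 on the sinusoidal list and from 5.12 to 124 on the arterial list, from cells within the arterial range to cells within the sinusoidal range. On the sinusoidal list, 46 of 129 reached at least the 5th percentile of the sinusoidal cells of their library, 10 in VC, 25 in FLOX and 11 in WT. On the arterial list, 72 of 129 were above the 95th percentile of those sinusoidal cells, 21 in VC, 41 in FLOX and 10 in WT. More arterial than sinusoidal UMIs were held by 42 cells, 11 in VC, 25 in FLOX and 6 in WT, against 0.145% to 0.666% of sinusoidal and 78.6% to 98.5% of arterial cells of a library. By these lists the class held cells high on the sinusoidal list, cells high on the arterial list and cells with UMIs of both. The arterial list includes Ly6a and Ly6c1, and Ly6a was also higher in VC than in FLOX and WT. In the VC cell with the highest arterial value, Ly6a and Ly6c1 gave 64 and 26 of its 111 arterial UMIs. The part of these genes in the counts of each library was not tested.

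**Figure D4:**
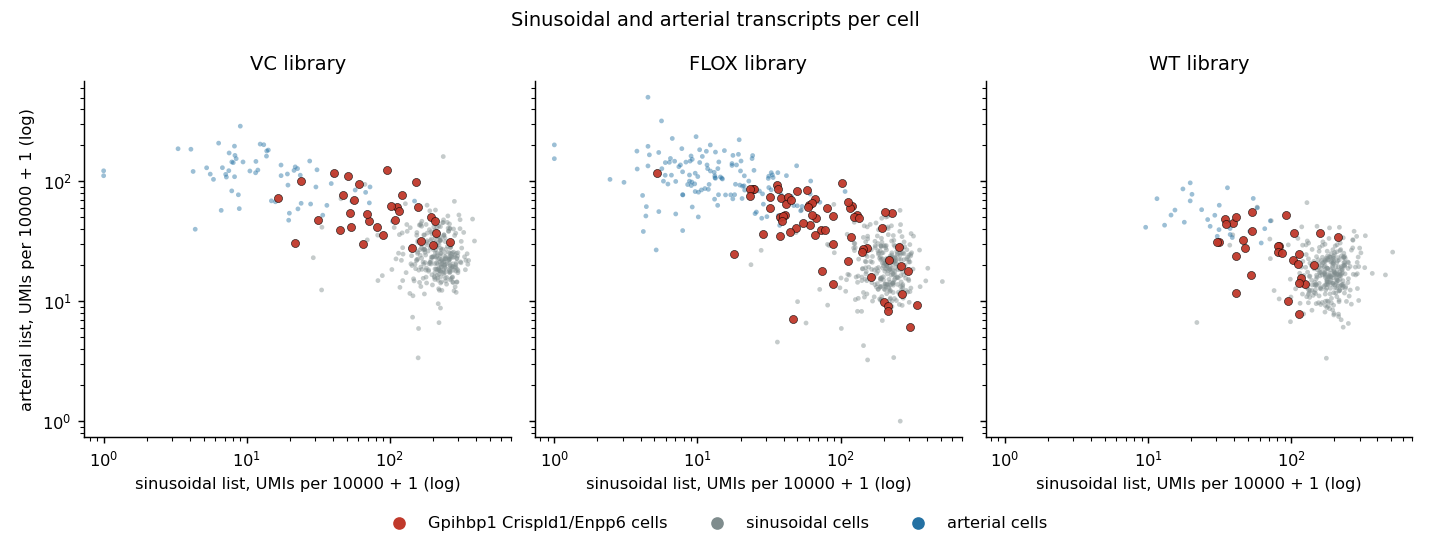
UMIs of 14 sinusoidal genes (x axis) and 23 arterial genes (y axis) per 10000 UMIs of a cell, plus 1, on log scales, 1 panel per library, with each Gpihbp1/Crispld1 cell (red), each arterial cell (blue) and a sample of the sinusoidal cells (grey). The red points run from the blue cloud to the grey cloud, and 42 of 129 had more arterial than sinusoidal UMIs.

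The levels of some genes differed with the amount of Gpihbp1. The libraries were mixed unevenly over it, with 11 VC, 19 FLOX and 14 WT cells at 2 to 4 UMIs of Gpihbp1, 7, 21 and 3 cells of VC, FLOX and WT at 5 to 9 UMIs, and 14, 27 and 13 cells of VC, FLOX and WT at 10 or more, so levels are given within each library. Adamts5 was at 952 CPM at 2 to 4, 1098 at 5 to 9 and 658 at 10 or more UMIs of Gpihbp1 in VC cells. In VC, 1 cell held 44 of the 53 UMIs of Adamts5 at 5 to 9, and 1 held 43 of the 75 at 10 or more. In FLOX cells Adamts5 was at 1458, 934 and 283 CPM at 2 to 4, 5 to 9 and 10 or more UMIs, and in WT cells at 1366, 574 and 237 CPM. In each library Adamts5 was lower at 10 or more than at 2 to 4 UMIs. Vcam1 was at 1146, 1554 and 1124 CPM at 2 to 4, 5 to 9 and 10 or more UMIs in VC cells, at 2694, 2249 and 649 in FLOX cells and at 590.2, 383 and 275 in WT cells, so it had no common order in the 3 libraries. Cd34 was at 349.6, 394 and 474 CPM in VC cells, at 303, 493 and 422 in FLOX cells and at 101, 63.8 and 408 in WT cells. At 10 or more UMIs it was above the value at 2 to 4 UMIs in each library. The median depth was 3921 UMIs at 2 to 4, 4735 at 5 to 9 and 7630.0 at 10 or more UMIs of Gpihbp1, and the part of depth in these levels was not tested.

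Cells just inside and just outside each threshold were set side by side. At the Gpihbp1 edge, the 14 cells with 2 UMIs had Ly6c1 at 954 CPM, Cd34 at 201, Sparcl1 at 134 and Adamts5 at 1305 CPM. The 29 cells with 1 UMI that met the rest of the rule had Ly6c1 at 103, Cd34 at 30.9, Sparcl1 at 0 and Adamts5 at 3298 CPM. Adamts5 was higher outside this edge in each library, and Ly6c1 was lower in VC and FLOX. In WT, Ly6c1 was at 59.7 CPM in 4 cells inside and 0 in 7 cells outside. Cd34 in VC was at 69.6 CPM in 3 cells inside and 89.4 in 6 cells outside. The WT values of Ly6c1 and the VC values of Cd34 rest on very few UMIs, so no order is read from them. Sparcl1 in WT was at 0 on both sides. At the Stab2 edge the 69 cells with 1 UMI and the 99 cells with 2 UMIs had Btnl9 at 1078 and 1071 CPM, Ly6c1 at 1156 and 973 CPM and Adamts5 at 957 and 1312 CPM. The WT cells went another way, with Ly6c1 at 761 CPM inside and 943 outside and Adamts5 at 878 CPM on both sides. At the arterial edge the 77 cells with 1 arterial gene and the 97 cells with 2 had Btnl9 at 1119 and 1235 CPM, Cd34 at 498 and 561 CPM, Adamts5 at 467 and 248 CPM and Vcam1 at 768 and 472 CPM. Adamts5 and Vcam1 were lower outside this edge in each of the 3 libraries. Btnl9 was lower outside it in VC and FLOX and higher in WT, and Cd34 was lower in VC and higher in FLOX and WT. At the edge of Crispld1 and Enpp6, the 12 cells with 1 UMI of either had Ly6c1 at 449 CPM, Cd34 at 424, Sparcl1 at 74.9 and Adamts5 at 1148 CPM, and the 10 cells with 0 had Ly6c1 at 1519, Cd34 at 449, Sparcl1 at 932 and Adamts5 at 414 CPM. The libraries differ in share across this edge, with 1 VC, 4 FLOX and 7 WT cells inside and 3, 4 and 3 cells of VC, FLOX and WT outside, so no order is read from these sums.

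Genotype was compared as VC against FLOX and WT, within the Gpihbp1/Crispld1 cells. The VC cells had more transcripts of antigen presentation and of interferon-induced genes, and Btnl9 and Cyyr1 did not differ past the size used. Of 2822 genes, 149 (5.28%) were at least 1.5-fold higher in VC than in FLOX and in WT by more than FLOX and WT differed, and 133 (4.71%) were lower. With FLOX as the odd library these counts were 65 (2.3%) and 57 (2.02%), and with WT 91 (3.22%) and 185 (6.56%), so the VC count of lower genes lay between those of FLOX and WT. Where the VC interval also had to lie apart from both others, 54 genes (1.91%) were higher and 5 (0.177%) lower, against 17 (0.602%) and 3 (0.106%) for FLOX and 23 (0.815%) and 20 (0.709%) for WT.

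Class II genes led the list. Cd74, the chaperone of class II molecules, stood at 735 CPM in VC, 21.2 in FLOX and 0 in WT Gpihbp1/Crispld1 cells, with 157 UMIs in 11 of 32 VC cells, 8 UMIs in 7 of 67 FLOX cells and 0 in 30 WT cells. Against the floor of 3 UMIs in WT it was at least 51.4-fold higher in VC. H2-Ab1, a class II beta chain, was at 431 CPM in VC, 15.9 in FLOX and 9.54 in WT Gpihbp1/Crispld1 cells, and was found in 16 of 32 VC, 3 of 67 FLOX and 2 of 30 WT cells. H2-Aa, the alpha chain, was at 276 CPM in VC, 2.65 in FLOX and 0 in WT Gpihbp1/Crispld1 cells, in 16 of 32 VC cells and 1 of 67 FLOX cells. The 3 measured class II genes were all past the size. Of the 6 blood-cell genes, Srgn, Cd52 and Tyrobp had UMIs in the VC Gpihbp1/Crispld1 cells and Ptprc, Coro1a and Laptm5 had 0. Together the 6 summed to 786 CPM in VC, 877 in FLOX and 539 in WT Gpihbp1/Crispld1 cells, led by Srgn in each library. The 8 genes of the B-lineage list summed to 201 CPM in VC, 252 in FLOX and 162 in WT Gpihbp1/Crispld1 cells, led by Ebf1 and Ighm. In VC these were 43 UMIs in 20 of 32 cells, with UMIs of Ebf1 and Ighm and none of the other 6 genes, Cd79a and Cd79b among them. The part of these transcripts in the class II levels was not tested. H2-Ab1 also differed outside the class, with 116 CPM in VC, 11.3 in FLOX and 3.30 in WT sinusoidal cells and 335 CPM in VC, 64.4 in FLOX and 10.2 in WT arterial cells.

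Of the interferon list, which shares B2m, Tap1, Psmb8 and Psmb9 with the class I list, 24 of 26 measured genes were higher in VC and 0 lower, with median log2 ratios of 1.77 against FLOX and 2.03 against WT, beside 0.00 and 0.02 over all genes tested. Cxcl9, a chemokine for T cells, was at 838 CPM in VC (719.5 to 969.9), 31.8 CPM in FLOX (16.4 to 55.6) and 81.1 in WT (47.2 to 129.8) Gpihbp1/Crispld1 cells, and 16 of 32 VC, 10 of 67 FLOX and 9 of 30 WT cells held a UMI. Its level was lower than in sinusoidal cells, at 3673 CPM in VC, 173 in FLOX and 218 in WT sinusoidal cells, and higher than in arterial cells, at 266 CPM in VC, 13.05 in FLOX and 17.9 in WT arterial cells. Cxcl10 was at 257 CPM in VC, 7.95 in FLOX and 0 in WT Gpihbp1/Crispld1 cells, and 1 VC cell held 25 of its 55 UMIs. The GTPases Igtp and Gbp4, which act against pathogens inside cells, were also higher. Igtp was at 412 CPM in VC, 34.5 in FLOX and 42.9 in WT Gpihbp1/Crispld1 cells, and Gbp4 at 641 CPM in VC, 87.5 in FLOX and 52.5 in WT Gpihbp1/Crispld1 cells.

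Of 14 class I genes 12 were higher and 0 lower. B2m, the light chain of class I, was at 2700.5 CPM in VC, 1259 in FLOX and 1202 in WT Gpihbp1/Crispld1 cells, against 2669 CPM in VC, 1390.0 in FLOX and 1354 in WT sinusoidal cells. Serpina3f, Gbp2 and the tryptophanyl-tRNA ligase Wars complete the 10 highest. Wars was at 332 CPM in VC, 60.97 in FLOX and 52.5 in WT Gpihbp1/Crispld1 cells, against 94.7 CPM in VC, 32.4 in FLOX and 43.8 in WT sinusoidal cells. Ly6a, which encodes Sca-1, was at 2022 CPM in VC (1836 to 2222), 1100.1 CPM in FLOX (997 to 1211) and 734 in WT (623 to 859.9) Gpihbp1/Crispld1 cells, and Ly6c1 at 801 to 1811 CPM was not past the size. Sinusoidal and arterial cells of VC came from the same library as these cells and add no replicate.

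**Figure D5:**
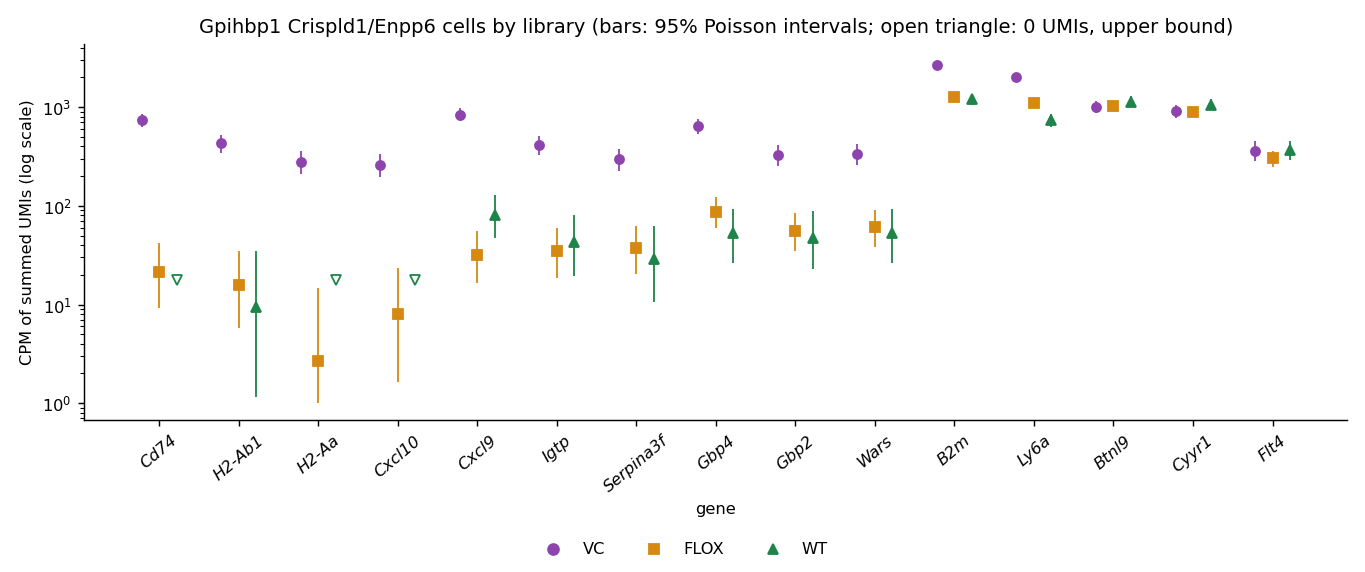
CPM of summed UMIs (y axis, log scale) of 15 genes (x axis) in Gpihbp1/Crispld1 cells of VC (circles), FLOX (squares) and WT (triangles), with 95% Poisson intervals. Open triangles mark 0 UMIs and stand at the upper bound, and lower bars are cut at 1 CPM. The class II, interferon and class I genes stand higher in VC, while the intervals of Btnl9, Cyyr1 and Flt4 overlap.

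The marker genes outside the rule were not past the size in VC. Btnl9 had log2 ratios of -0.04 against FLOX and -0.18 against WT, and Cyyr1 of 0.01 against FLOX and -0.23 against WT. Neither the 4 measured VEGF genes nor the 7 measured genes of caveolae and fenestrae were past the size in VC. Flt4 had log2 ratios of 0.25 against FLOX and -0.03 against WT. Among the 11 sinusoidal genes Sele alone was lower, at 187 CPM in VC, 435 in FLOX and 501 in WT Gpihbp1/Crispld1 cells, and among 11 adhesion genes Sele and Icam1 were lower. Vcam1, at 1226 CPM in VC, 1527 in FLOX and 372 in WT Gpihbp1/Crispld1 cells, was lower in WT than in either of the others.

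The 10 genes with the largest folds lower in VC rested on few UMIs. Ndfip2, an adaptor of ubiquitin ligases, was at 18.7 CPM in VC, 101 in FLOX and 95.4 in WT Gpihbp1/Crispld1 cells, from 4 UMIs in VC. Cenpb, a centromere protein, was at 46.8 CPM in VC, 140.5 in FLOX and 143 in WT Gpihbp1/Crispld1 cells. Ndfip2 and Cenpb, with Sele and Dhx9, are among the 5 genes whose intervals lay apart. Pak1ip1, Abracl, Tsen34, Rnf187, Mmrn1, Ndufv3 and Gm26778 were also among the 10 lowest and had between 4 and 6 UMIs in VC.

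Immediate early genes, which tissue handling can induce, also differed in the VC library. Of 11 immediate early genes, 3 were higher (Fos, Fosb and Dusp1) and 0 lower, with medians of 0.41 against FLOX and 0.96 against WT. Fos was at 861 CPM in VC, 485 in FLOX and 463 in WT Gpihbp1/Crispld1 cells. Of 10 heat shock genes 0 were past the size, and their medians were 0.19 against FLOX and 1.02 against WT. Hspa1a, a chaperone, was at 501 CPM in VC, 339 in FLOX and 109.7 in WT Gpihbp1/Crispld1 cells. Cdkn1a, a cell cycle inhibitor, was higher, at 267 CPM in VC, 117 in FLOX and 52.5 in WT Gpihbp1/Crispld1 cells. The part of these genes in the VC differences was not tested. Without cells holding 100 or more UMIs of S100a8 or Hbb-bs, the VC counts were 134 higher and 140 lower. Within cells of 3000 to 9000 UMIs the VC counts were 86 higher and 92 lower, with 63 and 40 shared with those over all cells. Without cells holding UMIs of any other cell type, which kept 11 VC, 23 FLOX and 3 WT cells, they were 21 higher and 20 lower of only 584 genes measured, and 8 of the higher and 1 of the lower genes were shared with the counts over all cells.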

How the data were processed

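Single-cell RNA of 3 libraries, 1 per genotype, was measured with 10x 3′ chemistry. The values are whole UMI counts per gene and barcode as deposited by the authors, with no normalization. Cell Ranger 2.1.1, Seurat 3.1 and mm10 are named, per the submitters' processing notes, with no role given, and the matrix headers give software version 3.1.0. The sources used here do not give the annotation behind the counting.

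Barcodes were kept with at least 500 genes and at most 10% mitochondrial UMIs, and no doublet caller was run. Counts were summed over the cells of a class in each library and scaled to CPM. A gene with 0 UMIs entered ratios at a floor of 3 UMIs per library. Class ratios were taken within each library, with at least 2-fold asked of all 3, 50 UMIs or more and 50 CPM or more on average. VC was compared with FLOX and WT at 1.5-fold. No test was made, since each genotype is 1 library and the cells were chosen on expression. Median depth of the cells was 5088 to 7313.5 UMIs per library, and intervals and floors cover counting error only.

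The cells and gene lists were chosen with earlier results of these data known. Named genes are the 15 (sinusoidal) or 10 (arterial, VC) in each direction with the largest lowest fold, the rule genes and markers, and up to 4 of each list. Other genes named, among them Smad7, Mgll, Npnt, Hspa1a and Plvap, were chosen after their values were seen where that rule does not hold them. Mitochondrial, ribosomal, haemoglobin, immunoglobulin, sex-linked and blood-cell list genes were left out of the rankings. Some genes that the rule names are not reported here. The alternatives changed the cell filters, the rule, the scaling, the minimum level, the fold and the libraries. Scripts were tested on simulated data and used Python 3.11.15, numpy 2.4.6, scipy 1.17.1, pandas 2.3.3 and matplotlib 3.10.9.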

Additional observations from a re-analysis of the deposited data

How the results depend on the processing

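No paired analysis was possible because each genotype is 1 library, and the class ratios, although taken within each library, carry no test since expression chose the classes. Of 112 alternative values of the shares and gene counts, 86 stayed within the counting interval or within 1.5 times, and 26 moved. Of 940 alternative values of 70 named genes 0 reversed, and 102 lay outside the counting interval. With Gpihbp1 at 5 or more UMIs the shares were 1.17% in VC, 1.37% in FLOX and 0.513% in WT, and 30 genes were higher than in arterial cells. With cells thinned to 5000 UMIs the shares were 4.39% in VC, 3.65% in FLOX and 3.17% in WT. Without cells holding UMIs of other cell types, which leaves 11 cells in VC, 23 in FLOX and 3 in WT, 16 genes were lower than in sinusoidal cells, 22 higher and 6 lower than in arterial cells, and 21 higher and 20 lower in VC of 584 genes measured; of these, 13, 15, 1, 8 and 1 were shared with the main counts. With no minimum CPM, 223 genes were higher and 138 lower than in sinusoidal cells, and 87 lower than in arterial cells. At 3-fold, 35 were higher and 17 lower than in sinusoidal cells, and 22 higher and 16 lower than in arterial cells. At 2-fold, 46 were higher and 31 lower in VC, and with the VC interval apart 54 and 5. Within 3000 to 9000 UMIs, 86 were higher in VC. Leaving out 1 library gave 81 to 105 genes higher and 73 to 84 lower than in sinusoidal cells, and 50 to 116 higher and 47 to 129 lower than in arterial cells, the upper ends without WT. Stricter folds, fewer cells and fewer libraries change these counts by construction; for the remaining settings the cause was not tested. Median-of-ratios scaling moved the median of all genes by 0.12 (log2) in the WT comparison with arterial cells. The limits of Gpihbp1 at 5 UMIs, cells with 100 or more UMIs of S100a8 or Hbb-bs, 3000 to 9000 UMIs and intervals apart were chosen after seeing the data. Few cells, 30 to 67 per library, limit every level.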
